A study of Homo sapiens with 21 samples.

Results

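The genes described are 10 that encode chaperones and proteases of the mitochondrion. They were found by matching the Ensembl IDs of the deposited gene table to the symbols HSPD1, HSPE1, HSPA9, DNAJA3, TRAP1, LONP1, CLPP, CLPX, YME1L1 and HTRA2. Each symbol matched 1 row, so that 10 of the 60671 rows are covered, and all 10 were among the 14012 genes with enough counts to be tested.

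Nearly all mitochondrial proteins are made in the cytosol and enter the organelle unfolded. In the matrix the HSP70 chaperone HSPA9 pulls them in and, with J proteins such as DNAJA3, helps them to fold, while HSPD1 (HSP60) and its lid HSPE1 (HSP10) form a chamber in which proteins fold. Proteins that do not fold are degraded by ATP-driven proteases of the matrix and inner membrane, and these chaperones and proteases are the textbook targets of the mitochondrial unfolded protein response.

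Polyadenylated RNA of 21 samples was sequenced, 3 in each of 7 groups, to ask how transcripts change when folding fails in the endoplasmic reticulum (ER). OCI-AML3, a human leukaemic cell line, was untreated (0 h), or was kept for 4 h or 24 h in the solvent DMSO or in tunicamycin at 1 μg/mL, which blocks N-linked glycosylation in the ER. HEK293T, a line derived from human embryonic kidney, was kept for 24 h in DMSO or in the same dose of tunicamycin. No 4 h samples of HEK293T are analysed here. Each line is a single culture model, and nothing in the sources used says that the replicates were grown separately, so p-values measure the spread between these samples, which may be technical.

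Libraries held 13838480 to 19961819 counts (median 16657733), and mitochondrially encoded genes took 1.46 to 2.82% of them. Levels are given as CPM, the counts of a gene relative to all counts of its library after TMM scaling. A gene is said to have risen or fallen where the adjusted p of edgeR's quasi-likelihood test was at most 0.05, and "past both thresholds" means that its log2 fold change was also above 1 or below -1. HSPA5 (BiP), the main ER chaperone, rose by 3.29 and 3.52 on the log2 scale after 4 h and 24 h of tunicamycin in OCI-AML3 and by 2.7 after 24 h in HEK293T. DDIT3 (CHOP), a factor of the terminal response, rose by 5.36, 4.33 and 3.69. The 5 markers of leukaemic blasts (PTPRC, SPI1, CD33, MPO, LYZ) summed to 672 to 790 CPM in OCI-AML3 libraries and to 0.151 to 0.403 CPM in HEK293T libraries, with PTPRC and MPO at 0 in the latter. MPO, a defining myeloid marker, was at only 0.98 to 1.66 CPM in OCI-AML3 cells. The 5 markers chosen for HEK293T (PAX2, LHX1, KRT8, KRT18, CDH2) summed to 121 to 147 CPM there and to 5.31 to 7.94 CPM in OCI-AML3, where PAX2 was at 0. PAX2 and LHX1 stayed at or below 2.1 CPM in HEK293T, and LHX1 was no higher there than in OCI-AML3. A pair of libraries stood farthest from the others of their groups. By a chi-square of the counts over genes, per degree of freedom, the third tunicamycin library of OCI-AML3 at 24 h differed from the other two by 16.36 and 23.69, which differed from each other by 7.77, and the first DMSO library at 4 h by 19.96 and 19.39, against 3.89. All other pairs within a group lay between 1.95 and 10.22. The highest of these were in OCI-AML3. They belonged to the second untreated library (9.44 and 10.22, against 4.57) and the third DMSO library at 24 h (9.93 and 9.82, against 4.34). The third tunicamycin library was the lowest of its group for HSPE1, HSPA9, TRAP1, CLPP, HTRA2, DNAJA3 and LONP1, and the highest for CLPX and YME1L1. In RNA from whole cultures, fewer cells of a kind and less RNA per cell cannot be told apart.

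The RefSeq promoter table (GRCh38.p14), which runs from 250 bases before to 50 bases after each start, held 11 windows for 8 of the genes. CLPP and YME1L1 had no entry. Windows are shown for HSPE1, HSPD1, HSPA9 and LONP1, because HSPD1 and HSPE1 lie head to head on chromosome 2 and because HSPE1, HSPA9 and LONP1 hold an E-box (CACGTG). Capitals mark the E-box and the core of a heat shock element (TTCNNGAA), and each line is read 5′ to 3′ on the strand of its gene.
HSPE1, plus strand of chr2:197500129-197500428: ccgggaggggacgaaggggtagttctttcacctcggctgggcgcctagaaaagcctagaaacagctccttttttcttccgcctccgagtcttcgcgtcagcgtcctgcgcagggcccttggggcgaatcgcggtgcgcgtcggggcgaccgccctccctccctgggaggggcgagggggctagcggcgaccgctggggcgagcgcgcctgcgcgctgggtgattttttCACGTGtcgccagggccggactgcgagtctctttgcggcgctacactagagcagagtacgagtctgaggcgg
HSPD1, minus strand of chr2:197499791-197500090: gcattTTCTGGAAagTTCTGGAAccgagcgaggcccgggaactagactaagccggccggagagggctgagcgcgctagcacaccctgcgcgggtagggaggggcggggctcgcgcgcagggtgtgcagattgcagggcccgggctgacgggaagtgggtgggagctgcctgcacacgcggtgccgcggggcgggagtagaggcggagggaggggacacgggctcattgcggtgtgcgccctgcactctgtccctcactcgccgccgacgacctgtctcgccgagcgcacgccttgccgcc
HSPA9, minus strand of chr5:138575352-138575651: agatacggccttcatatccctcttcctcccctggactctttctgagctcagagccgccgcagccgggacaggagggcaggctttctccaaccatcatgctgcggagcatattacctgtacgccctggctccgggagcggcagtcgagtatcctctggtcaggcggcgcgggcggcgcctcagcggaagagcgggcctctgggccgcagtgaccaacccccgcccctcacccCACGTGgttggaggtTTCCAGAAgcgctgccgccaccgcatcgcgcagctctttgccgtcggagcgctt
LONP1, minus strand of chr19:5720097-5720396: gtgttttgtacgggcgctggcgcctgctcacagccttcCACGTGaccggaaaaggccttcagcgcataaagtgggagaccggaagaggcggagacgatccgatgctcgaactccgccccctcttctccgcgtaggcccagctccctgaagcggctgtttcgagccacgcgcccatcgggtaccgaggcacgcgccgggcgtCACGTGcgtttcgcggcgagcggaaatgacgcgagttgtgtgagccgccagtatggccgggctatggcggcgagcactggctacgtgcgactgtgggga

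In these windows the E-box began 22 bases before the start of HSPE1, 19 before that of HSPA9, and 212 and 49 before that of LONP1. A second HSPD1 window, for a start further upstream, shares 204 bases with the HSPE1 window and holds the same E-box, 88 bases before its start. The heat shock element core began 245 and 235 bases before the start of HSPD1 in the window shown and 4 bases before that of HSPA9. Searched on both strands, the E-box was in 7.26% and the heat shock element core in 7.74% of all 35116 windows of the table. The composite site of ATF4 and CHOP (TGATGNAA, in 3.62% of windows) was in none of the 11, nor was the ER stress response element, which 0.0769% of windows held. Of the other motifs, a CHOP site (TGCAAT, 8.21%) was 122 bases before the start in the HSPD1 window shown, the cAMP response element (TGACGTCA, 1.85%) was in the TRAP1 window, and the core of the NRF1 site (GCATGCGC, 3.05%) was in the DNAJA3 window and a second window of LONP1. A match of letters is a description, not a site that a factor was shown to bind.

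All 10 genes were expressed in every library. Per kilobase of exon, so that genes can be compared, HSPE1 and HSPD1 were the most abundant in untreated OCI-AML3 cells, at 134 ± 11.2 and 133 ± 3.58 CPM per kb (SD, n = 3), and their libraries overlapped. HSPA9 followed at 56.8 ± 0.979, TRAP1 at 49.9 ± 1.81 and LONP1 at 46.1 ± 2.08 CPM per kb, each apart from the next. YME1L1 (28.8 CPM per kb) and CLPP (26.0) overlapped, DNAJA3 stood at 21.3, and CLPX (14.5) and HTRA2 (13.1), which overlapped, were lowest. The order depends on the length used: per kilobase of the longest transcript HSPE1 stood at 350 and HSPD1 at 206 CPM per kb, without overlap, and CLPX, not HTRA2, was lowest.

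**Figure D1:**
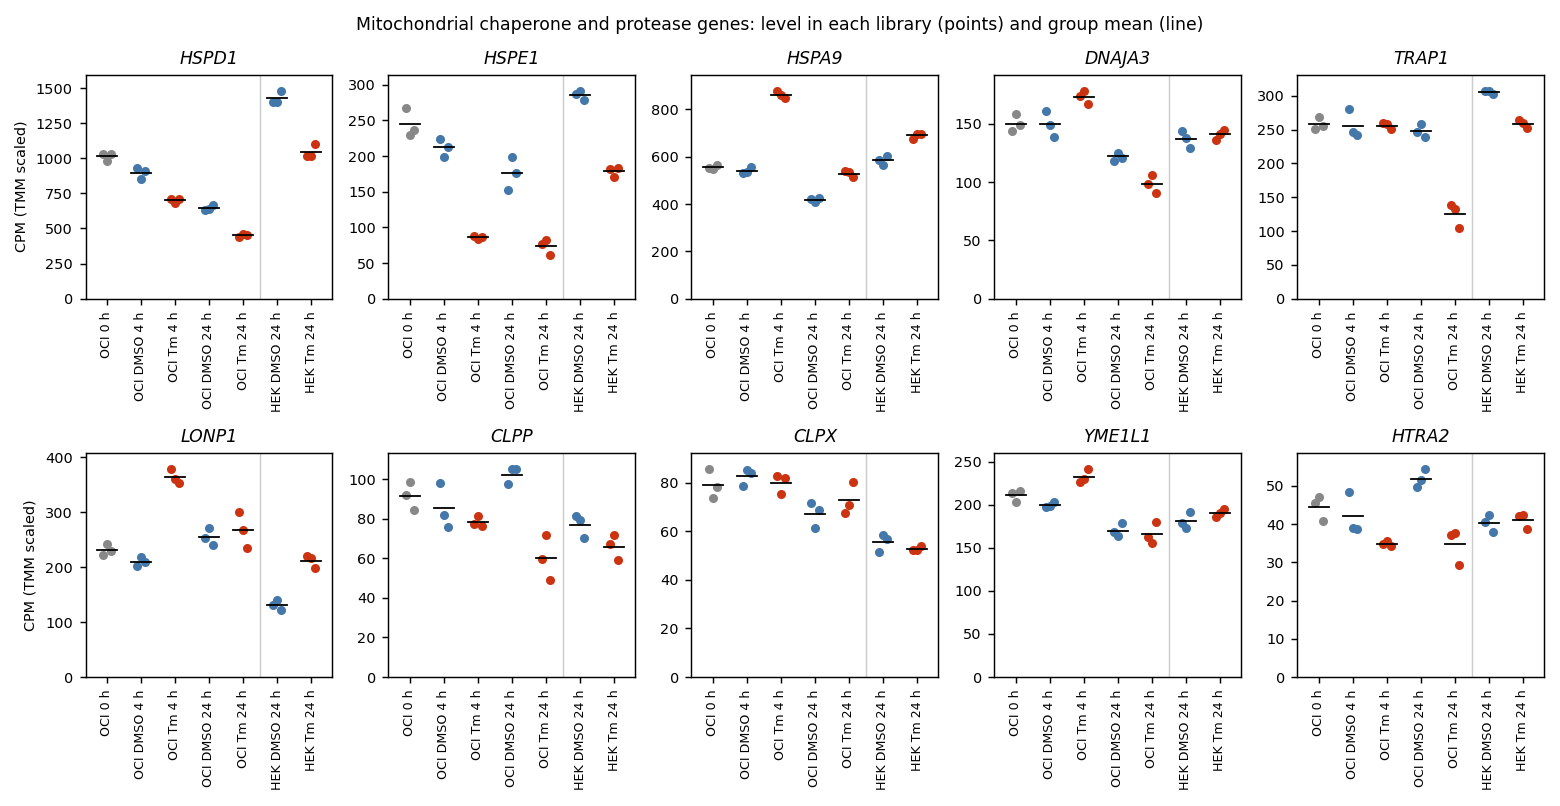
Level of each gene (CPM, linear axis from 0) in the 21 libraries; grey points are untreated OCI-AML3, blue points DMSO and red points tunicamycin (Tm), and lines are group means of 3 libraries. HSPE1 falls to 84.3 to 88.1 CPM after 4 h of tunicamycin, HSPA9 and LONP1 rise at 4 h, and TRAP1 falls at 24 h in OCI-AML3.

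In DMSO at 24 h the lines differed in 9 of the 10 genes, against 82.7% of all genes tested. HSPD1 was at 1398, 1404 and 1478 CPM in HEK293T against 633, 641 and 664 in OCI-AML3, a log2 difference of 1.14 ± 0.06 (SE, adjusted p = 1.2e-14). HSPE1 (0.70), HSPA9 (0.48), TRAP1 (0.30) and DNAJA3 (0.17) were also higher in HEK293T. Without a filter on low counts DNAJA3 turned to -0.01 and TRAP1, at 0.12, lost its call. LONP1, the main soluble protease of the matrix, was lower there, at 131, 141 and 122 CPM against 254, 271 and 240, a log2 difference of -0.96 ± 0.08 (adjusted p = 1.1e-10). CLPP (-0.41), HTRA2 (-0.36) and CLPX (-0.28) were lower as well, while YME1L1 differed by 0.09 (adjusted p = 0.17). Without TMM the median of all genes moved by 0.34 towards HEK293T. On that scale HSPD1, HSPE1, HSPA9, DNAJA3, TRAP1 and LONP1 kept their call and direction, CLPP (-0.07) and HTRA2 (-0.02) lost theirs, CLPX turned to 0.07 (adjusted p = 0.49), and YME1L1 was 0.43 higher in HEK293T (adjusted p = 5.2e-06).

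After 4 h of tunicamycin 7 of the 10 genes had changed in OCI-AML3. HSPA9, LONP1, DNAJA3 and YME1L1 rose, 4 of 10 where 18.5% of all genes rose, and HSPD1, HSPE1 and HTRA2 fell, 3 of 10 where 18.9% of all genes fell. Without a filter on low counts only HSPA9 and LONP1 rose (2 of 10), and without the first DMSO library HTRA2 no longer fell (2 of 10 fell). One gene, HSPE1, was past both thresholds, as were 4.92% of all genes. After 24 h HSPA9 was the only member that rose (1 of 10, against 23.5% of all genes), and HSPE1, TRAP1, CLPP, HTRA2, HSPD1 and DNAJA3 fell (6 of 10, against 27.7%). Without the third tunicamycin library these genes still fell, with log2 fold changes of -1.10 for HSPE1, -0.83 for TRAP1, -0.60 for CLPP, -0.43 for HTRA2, -0.48 for HSPD1 and -0.21 for DNAJA3 (adjusted p = 0.026 for the last), and LONP1 also rose (0.20), so that 2 of 10 rose. Without the first tunicamycin library CLPX rose beside HSPA9 (2 of 10). Again HSPE1 alone was past both thresholds, as were 6.32% of all genes, with TRAP1 just short of them at -0.99. In HEK293T at 24 h LONP1 and HSPA9 rose (2 of 10, against 12.6%), HSPE1, HSPD1 and TRAP1 fell (3 of 10, against 13.1%), and no member was past both thresholds, as were 2.13% of all genes. Over the 10 members the median was -0.02, -0.41 and -0.02 on the log2 scale, and over all genes tested it was -0.02, -0.01 and -0.01.

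**Figure D2:**
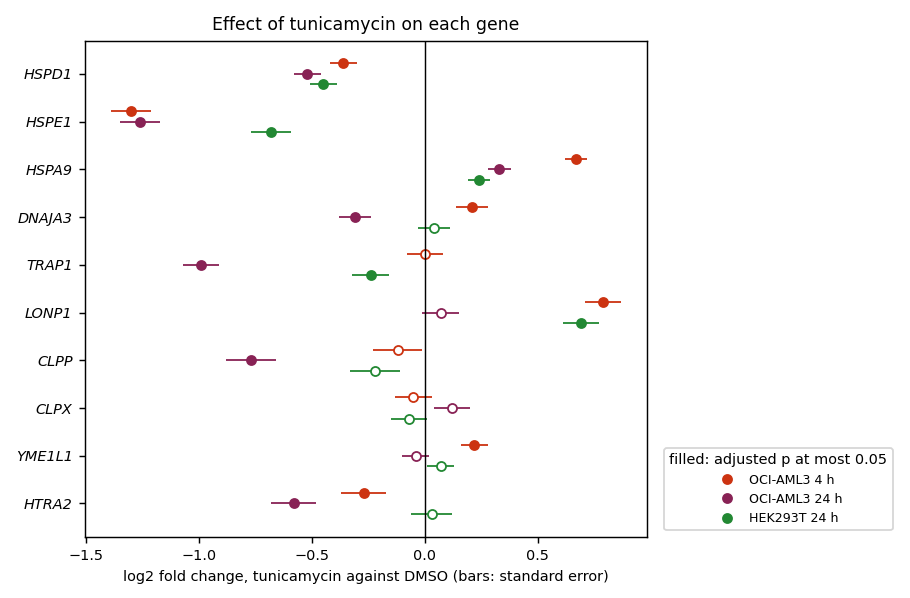
Log2 fold change of each gene, tunicamycin against DMSO, in OCI-AML3 at 4 h and 24 h and in HEK293T at 24 h, with standard errors as bars and filled points for an adjusted p of at most 0.05. HSPE1 has the lowest value in each comparison (-1.30, -1.26 and -0.68), while LONP1 and HSPA9 lie to the right of 0 throughout.

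HSPD1 and HSPE1, the chamber and lid of the matrix chaperonin, fell in all 3 tunicamycin comparisons. HSPE1 was at 224, 199 and 213 CPM after 4 h in DMSO and at 88.1, 84.3 and 86.3 CPM in tunicamycin. Every treated library lay far below every control, a 2.46-fold lower level (log2 fold change -1.30 ± 0.09, adjusted p = 1.9e-10). At 24 h it was at 153, 198 and 176 CPM in DMSO and at 77.0, 82.4 and 61.4 CPM in tunicamycin (-1.26 ± 0.09, adjusted p = 3.8e-10). In HEK293T the values were 287, 291 and 279 CPM against 182, 171 and 183, again without overlap (-0.68 ± 0.09, adjusted p = 6.4e-06).

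HSPD1 had smaller fold changes. It went from 928, 850 and 912 CPM in DMSO to 712, 682 and 708 CPM in tunicamycin at 4 h (-0.36 ± 0.06, adjusted p = 3.0e-05). At 24 h it went from 633, 641 and 664 to 439, 460 and 455 CPM (-0.52 ± 0.06, adjusted p = 1.6e-07). HEK293T libraries held 1398, 1404 and 1478 CPM in DMSO and 1013, 1017 and 1099 in tunicamycin (-0.45 ± 0.06, adjusted p = 2.6e-06). Control and treated libraries did not overlap in any of these comparisons.

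The ratio of lid to chamber transcripts was lower with tunicamycin, and the proteins were not measured. The ratio of HSPE1 to HSPD1, each per kilobase of exon, was 1.01, 0.98 and 0.976 after 4 h in DMSO and 0.517, 0.517 and 0.51 in tunicamycin, a log2 difference of -0.94 ± 0.02. At 24 h it was 1.01, 1.29 and 1.11 in DMSO against 0.734, 0.75 and 0.565 in tunicamycin (-0.74 ± 0.17, and -0.61 without the third tunicamycin library). HEK293T libraries had ratios of 0.861, 0.866 and 0.79 in DMSO and 0.751, 0.704 and 0.697 in tunicamycin (-0.23 ± 0.05). Treated and control ratios were apart in each case, and the two-sided exact permutation p was 0.1, the smallest that 3 against 3 libraries allow (0.12 adjusted over the 12 ratio comparisons made here). The ratio itself depends on the lengths: with the longest transcripts it was 1.66 in DMSO and 0.867 in tunicamycin at 4 h. The log2 difference does not depend on them.

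**Figure D3:**
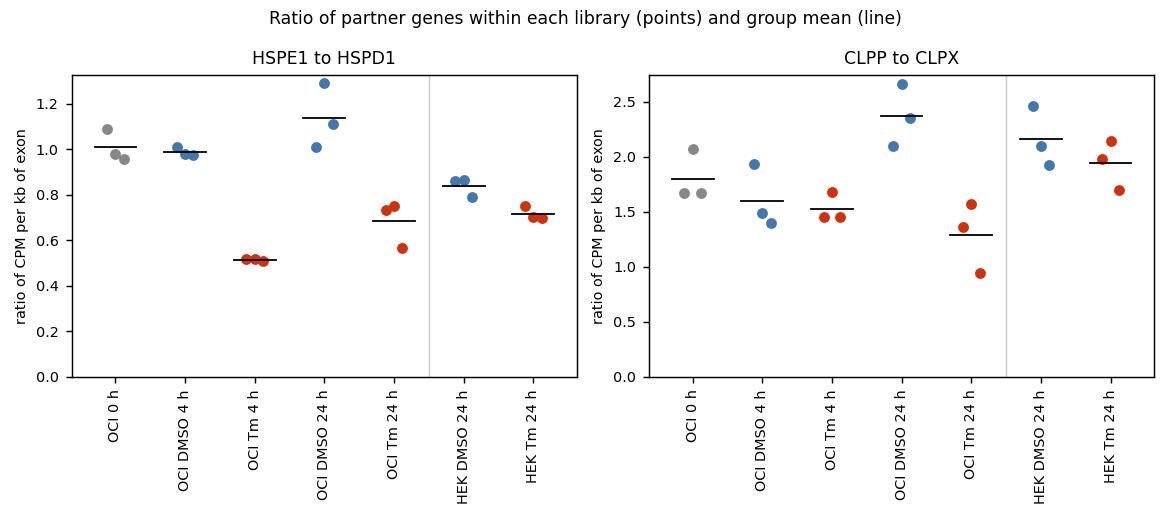
Ratio of CPM per kb of exon of HSPE1 to HSPD1 (left) and of CLPP to CLPX (right) in each library (points; grey untreated, blue DMSO, red tunicamycin) with group means (lines), on linear axes from 0. The HSPE1 to HSPD1 ratio lies at 0.51 to 0.517 after 4 h of tunicamycin, below all other libraries. The group mean of CLPP to CLPX is lowest after 24 h of tunicamycin in OCI-AML3. Its libraries (0.944 to 1.57) overlap those of other groups.

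Reads of HSPE1 need care. The readthrough gene HSPE1-MOB4 covers 34.5% of the canonical HSPE1 transcript on the same strand. It is among the 27 genes counted here, by their symbols, as copies of HSPE1. The expected count of HSPE1 was not a whole number in 18 libraries, a mark of reads divided between genes. HSPE1-MOB4 itself was low, at 0 to 5.76 CPM, and the 27 genes together held at most 2.6% of the reads. Adding their reads to HSPE1, and those of 18 copies to HSPD1, changed no call.

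HSPA9, the HSP70 of the matrix (mortalin), rose in each comparison. After 4 h it was at 532, 534 and 556 CPM in DMSO and at 877, 859 and 846 CPM in tunicamycin, 1.59-fold higher (log2 fold change 0.67 ± 0.05, adjusted p = 4.5e-10). At 24 h the levels were 422, 410 and 425 CPM against 539, 534 and 513 (0.33 ± 0.05, adjusted p = 1.3e-05). HEK293T libraries held 588, 564 and 601 CPM in DMSO and 675, 698 and 698 in tunicamycin (0.24 ± 0.05, adjusted p = 0.0011). No treated library overlapped a control. The rise at 24 h in OCI-AML3 brought HSPA9 to about the level of DMSO at 4 h (541 ± 13.5 CPM, SD, n = 3) after a fall with time in DMSO.

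DNAJA3, a J protein that works with HSPA9, moved in opposite directions at the times sampled. At 4 h it was at 161, 149 and 139 CPM in DMSO and 174, 178 and 167 in tunicamycin (0.21 ± 0.07, adjusted p = 0.017). This call is not firm: it was lost without the second tunicamycin library (adjusted p = 0.068), without the third DMSO library (0.099) and without a filter on low counts (0.18). The value at 4 h ranged from 0.16 to 0.28 over the fits run. At 24 h DNAJA3 fell from 118, 125 and 121 CPM to 98.7, 106 and 90.5 (-0.31 ± 0.07, adjusted p = 8.1e-04), and in HEK293T its log2 fold change was 0.04 (adjusted p = 0.76). The ratio of DNAJA3 to HSPA9 was lower with tunicamycin in every comparison, by log2 differences of -0.46, -0.64 and -0.20, with treated and control libraries apart each time (exact permutation p = 0.1, adjusted p = 0.12). The ratio of TRAP1 to HSPA9 was lower as well, by -0.66, -1.33 and -0.48, with libraries apart and the same p.

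TRAP1, the HSP90 of mitochondria, had its change at 24 h. After 4 h it was at 280, 246 and 242 CPM in DMSO and at 260, 259 and 251 CPM in tunicamycin (log2 fold change 0.00 ± 0.08, adjusted p = 0.97). After 24 h it was at 246, 259 and 239 CPM in DMSO against 139, 133 and 105 in tunicamycin, 1.98-fold lower (-0.99 ± 0.08, adjusted p = 1.0e-09). HEK293T libraries held 307, 307 and 303 CPM against 265, 260 and 252 (-0.24 ± 0.08, adjusted p = 0.026). The libraries overlapped at 4 h and were apart at 24 h in both lines. The HEK293T call was lost in 5 of the fits that left out a single HEK293T library, with adjusted p of 0.055 to 0.092 and values of -0.24 to -0.22. DNASE1 overlaps 39.0% of the canonical TRAP1 transcript on the other strand. It was at 21.2 to 31.6 CPM after 24 h of tunicamycin and at 19.8 to 23.3 CPM in DMSO, and whether the counting used the strand is not given in the sources used here.

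LONP1, an AAA+ protease that degrades misfolded and oxidised matrix proteins, rose at 4 h in OCI-AML3 and at 24 h in HEK293T. At 4 h it was at 203, 218 and 209 CPM in DMSO and at 378, 361 and 353 CPM in tunicamycin, 1.73-fold higher (0.79 ± 0.08, adjusted p = 3.1e-08). In HEK293T it went from 131, 141 and 122 CPM to 220, 217 and 198, 1.61-fold higher (0.69 ± 0.08, adjusted p = 5.8e-07). At 24 h in OCI-AML3 the libraries overlapped, at 254, 271 and 240 CPM in DMSO against 301, 267 and 235 in tunicamycin (0.07 ± 0.08, adjusted p = 0.47). Without the third tunicamycin library, the lowest of these, the value was 0.20 (adjusted p = 0.041).

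CLPP and CLPX are the peptidase and the unfoldase of the ClpXP protease, and only CLPP passed the test in a tunicamycin comparison. CLPP was at 98.2, 81.9 and 75.9 CPM in DMSO and 77.3, 81.5 and 76.5 in tunicamycin at 4 h (-0.12 ± 0.11, adjusted p = 0.42). At 24 h it was at 97.4, 105 and 105 CPM against 59.7, 71.7 and 49.0, 1.71-fold lower and without overlap (-0.77 ± 0.11, adjusted p = 6.0e-06). In HEK293T its libraries overlapped (-0.22 ± 0.11, adjusted p = 0.15), and a fit of these groups alone gave an adjusted p of 0.016. CLPX stayed between 51.3 and 85.4 CPM in the 21 libraries, with log2 fold changes of -0.05, 0.12 and -0.07 and adjusted p of 0.65, 0.22 and 0.55. Without the first tunicamycin library at 24 h the CLPX value was 0.22 (adjusted p = 0.038). The CLPP to CLPX ratio per kilobase was 2.10, 2.66 and 2.35 in DMSO and 1.36, 1.57 and 0.944 in tunicamycin at 24 h, a log2 difference of -0.90 ± 0.24 with libraries apart (exact permutation p = 0.1, adjusted p = 0.12). Without the third tunicamycin library, the lowest, the difference was -0.69. In the other comparisons the ratios overlapped (-0.06 and -0.15, exact p = 0.8 and 0.5).

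YME1L1, an inner membrane protease that faces the intermembrane space, rose at 4 h from 197, 199 and 203 CPM to 226, 230 and 241 (0.22 ± 0.06, adjusted p = 0.0063), without overlap. Without a filter on low counts this call was lost (adjusted p = 0.13), and the value ranged from 0.18 to 0.24 over the fits run. At 24 h its log2 fold change was -0.04 in OCI-AML3 and 0.07 in HEK293T, with overlapping libraries. HTRA2, a serine protease of the intermembrane space that is known to promote cell death once released, fell at both times in OCI-AML3. It was at 48.4, 39.0 and 38.6 CPM in DMSO and 34.7, 35.6 and 34.4 in tunicamycin at 4 h (-0.27 ± 0.10, adjusted p = 0.034), where the first DMSO library stood above the others and without it the value was -0.14 (adjusted p = 0.28). Leaving out any of the tunicamycin libraries or the second DMSO library at 24 h, or fitting these groups alone, also ended the call. At 24 h HTRA2 fell from 49.6, 51.5 and 54.3 CPM to 37.2, 37.6 and 29.3 (-0.58 ± 0.10, adjusted p = 3.3e-05), and in HEK293T it was at 40.5, 42.4 and 38.0 against 42.1, 42.4 and 38.7 CPM. LOXL3 overlaps 33.4% of its canonical transcript on the other strand and was at 6.04 to 15.5 CPM in all libraries.

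The controls give the background of solvent and culture time in OCI-AML3. DMSO at 4 h against untreated cells changed 0 of the 10 genes and 0.0% of all genes tested by edgeR's adjusted p. At an unadjusted p under 0.05, 2 of the members (HSPD1 at -0.18 and HSPE1 at -0.21) and 1160 of all genes passed, and limma voom called 0 and DESeq2 19 of all genes, none of them a member. Between DMSO at 4 h and at 24 h, 8 of the 10 genes changed, against 42.6% of all genes. HSPD1 (-0.47), HSPA9 (-0.37), DNAJA3 and CLPX (-0.30 each), HSPE1 (-0.27) and YME1L1 (-0.23) fell, and HTRA2 (0.30) and LONP1 (0.28) rose. The adjusted p was 0.021 for HSPE1, 0.014 for HTRA2 and 0.0062 for LONP1. Those of HSPE1 and HTRA2 were lost when single DMSO libraries were left out (up to 0.13 and 0.077) and those of LONP1 and HTRA2 without TMM (0.081 and 0.068). The DMSO libraries at 24 h serve both this comparison and that with tunicamycin, so the values are set side by side only. HSPD1 went from 897 to 646 CPM with time in DMSO and from 646 to 451 CPM between DMSO and tunicamycin at 24 h.

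The effect of tunicamycin in OCI-AML3 differed between 24 h and 4 h for 6 of the 10 genes, against 35.3% of all genes, by an interaction term in the same edgeR fit. In each the log2 fold change at 24 h was the lower. The difference was -0.99 for TRAP1 (adjusted p = 7.1e-07), -0.72 for LONP1 (3.2e-05), -0.65 for CLPP (0.0025), -0.51 for DNAJA3 (2.8e-04), -0.34 for HSPA9 (0.001) and -0.25 for YME1L1 (0.025). The last was lost in most fits that left out a single library or changed the scaling or filter (adjusted p up to 0.24). For HSPE1 the difference was 0.04 ± 0.13 (adjusted p = 0.85), for HSPD1 -0.16 ± 0.08 (0.12), for CLPX 0.17 (0.25) and for HTRA2 -0.32 ± 0.14 (0.075). The HTRA2 difference was -0.18 (0.32) without the third tunicamycin library at 24 h and -0.40 (0.017) without the first DMSO library at 4 h.

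Between the lines at 24 h the effect differed for 6 of the 10 genes, against 26.8% of all genes, and each log2 fold change was higher in HEK293T. For LONP1 this was a larger rise in HEK293T (0.69 against 0.07). TRAP1 and HSPE1 fell less there, and CLPP, HTRA2 and DNAJA3, which fell in OCI-AML3, did not pass the test there. The difference was 0.75 for TRAP1 (adjusted p = 3.1e-05), 0.62 for LONP1 (2.6e-04), 0.61 for HTRA2 (0.0019), 0.58 for HSPE1 (0.0022), 0.55 for CLPP (0.012) and 0.34 for DNAJA3 (0.011). CLPP and DNAJA3 lost this call without the third tunicamycin library of OCI-AML3 (0.067 and 0.081) and without the third DMSO library of HEK293T (0.065 and 0.092), and DNAJA3 also without the second DMSO library of OCI-AML3 (0.063). For HSPD1 the difference was 0.07 ± 0.08 (0.59) and for HSPA9 -0.09 ± 0.07 (0.37), and without TMM the HSPA9 difference was -0.20 (0.029).

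The HSP70, HSP90 and J protein classes have relatives in the ER and the cytosol, and their values are set side by side. Differences between genes were not tested here. Among the HSP70 genes the log2 fold changes of HSPA9 in OCI-AML3 (4 h, then 24 h) and HEK293T were 0.67, 0.33 and 0.24, beside 3.29, 3.52 and 2.7 for HSPA5 of the ER and -1.92, -0.75 and -0.55 for HSPA8, the constitutive HSP70 of the cytosol. HSPA8 went from 3464, 2686 and 3067 CPM to 834, 818 and 777 at 4 h. Of the HSP90 genes TRAP1 had 0.00, -0.99 and -0.24, HSP90B1 (GRP94) of the ER 1.70, 3.19 and 2.21, and the cytosolic HSP90AB1 -0.26, -0.87 and -0.62. At 24 h in OCI-AML3 TRAP1 was at -0.83 and HSP90AB1 at -0.77 without the third tunicamycin library. The chaperonin has a relative in the cytosol, TRiC, and none in the ER list. At 4 h HSPE1 (-1.30) and HSPD1 (-0.36) stood beside -0.27 to 0.21 for the 8 TRiC subunits. In HEK293T HSPE1 (-0.68) and HSPD1 (-0.45) stood beside -0.46 to -0.23, and at 24 h in OCI-AML3 (-1.26 and -0.52) beside -0.83 to -0.09. The 4 ER genes (HSPA5, HYOU1, HSP90B1, DNAJB11) all rose in each comparison, with median log2 fold changes of 2.26, 3.08 and 2.14. Of 12 cytosolic relatives (HSPA8, both HSP90 genes, DNAJA1 and subunits of the chaperonin TRiC) 7 fell and 1 rose at 4 h, 11 fell at 24 h and 12 fell in HEK293T, with medians of -0.18, -0.65 and -0.35. Without the first DMSO library 4 of them fell at 4 h, and without the third tunicamycin library 11 fell at 24 h. Of all genes 18.5%, 23.5% and 12.6% rose and 18.9%, 27.7% and 13.1% fell in the 3 comparisons.

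**Figure D4:**
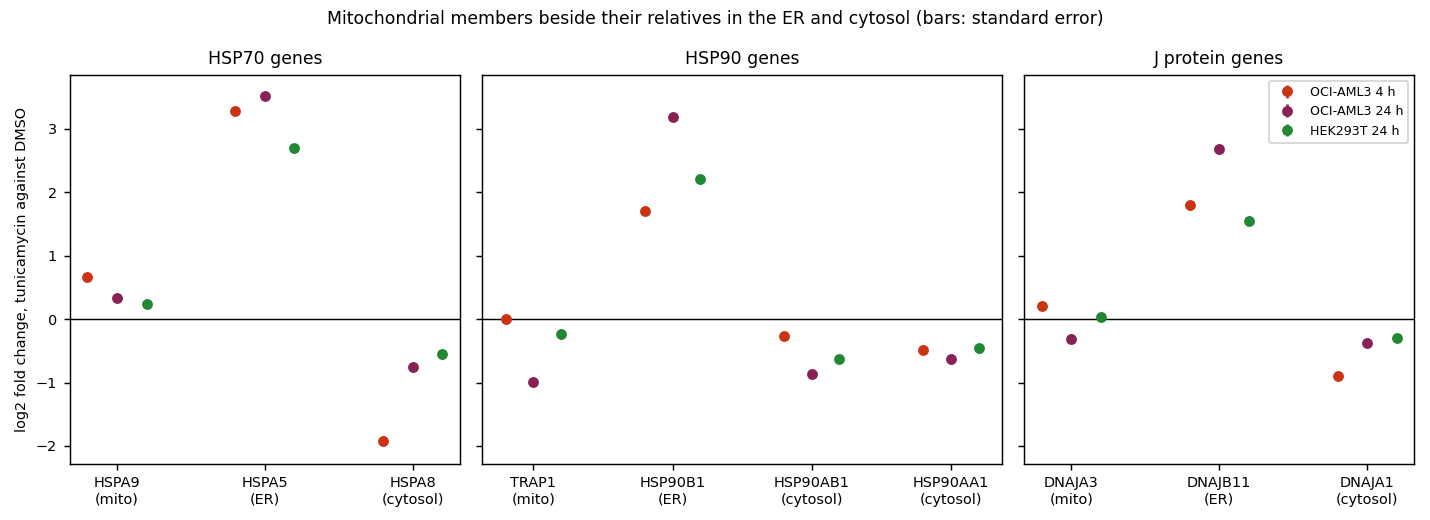
Log2 fold changes, tunicamycin against DMSO, of mitochondrial (mito), ER and cytosolic members of the HSP70, HSP90 and J protein classes in OCI-AML3 at 4 h and 24 h and HEK293T at 24 h; standard errors are mostly smaller than the points. The ER genes lie between 1.55 and 3.52, the mitochondrial ones between -0.99 and 0.67 and the cytosolic ones between -1.92 and -0.26.

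The HSP70 cofactor list held 8 genes that help HSPA9 to cycle or to pull proteins in. At 4 h 2 rose and 1 fell, at 24 h 1 rose and 5 fell, and in HEK293T 2 rose and 1 fell. Of all genes 18.5% rose and 18.9% fell at 4 h, 23.5% and 27.7% at 24 h, and 12.6% and 13.1% in HEK293T. DNAJC15 averaged 0.119 CPM in DMSO and 0.0742 CPM in tunicamycin in HEK293T. That is below the 0.137 to 0.231 CPM that a count of 0 allows, so its change was not measurable there. GRPEL2, a nucleotide exchange factor for HSPA9, rose in each comparison (1.24, 0.79 and 0.65), from 33.2, 32.2 and 33.9 to 82.3, 76.2 and 76.8 CPM at 4 h. Its sister gene GRPEL1 fell in each (-0.26, -0.37 and -0.25). TIMM44, which tethers HSPA9 to the import channel, rose at 4 h (0.57) and in HEK293T (0.20) and fell at 24 h (-0.24). The J-like factor PAM16 (-0.73) and DNLZ (-0.99), a partner that keeps HSPA9 soluble, fell at 24 h. Without the third tunicamycin library, which was the lowest of its group for 6 of these 8 genes, 3 fell, DNLZ was at -0.64 (adjusted p = 0.017), PAM16 at -0.46 (0.016) and TIMM44 at -0.12 (0.21), its call lost. Without the first DMSO library 3 rose at 4 h.

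Of 15 other mitochondrial proteases and their scaffolds, 3 rose and 4 fell at 4 h, and 2 rose and 11 fell at 24 h. In HEK293T 0 rose and 3 fell, and 10 had an unadjusted p under 0.05. The shares of all genes that rose were 18.5%, 23.5% and 12.6%, and those that fell 18.9%, 27.7% and 13.1%. IMMP1L, a subunit of the inner membrane peptidase, rose at 4 h and 24 h in OCI-AML3 (1.10 and 0.85), and OMA1, a stress-activated protease of the inner membrane, rose at 24 h (0.45). PMPCA, a subunit of the peptidase that removes import signals, fell in each comparison (-0.66, -0.52 and -0.49), as did PHB1 (-0.47, -0.92 and -0.42), a prohibitin that forms scaffolds for membrane proteases. CLPB, a disaggregase, fell at 24 h (-0.92). The list's medians were -0.05, -0.36 and -0.12. Without the third tunicamycin library, the lowest for 10 of the 15 genes, 9 fell at 24 h with a median of -0.27, and PHB1 was at -0.73. PHB1 at 4 h was at -0.34 (adjusted p = 0.0098) without the first DMSO library.

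Of 18 subunits of the import channels, 2 rose and 5 fell at 4 h, 1 rose and 13 fell at 24 h, and 2 rose and 5 fell in HEK293T, with medians of -0.07, -0.64 and -0.17. TOMM6, a small subunit of the outer membrane channel, fell in each (-0.87, -1.05 and -0.34). TIMM21, of the inner membrane channel, fell by 1.04 on the log2 scale at 4 h and TIMM8B, an intermembrane space chaperone, by 0.98 at 24 h. TIMM9, an intermembrane space chaperone, rose at 4 h (0.30) and in HEK293T (0.53), TIMM17A, a channel subunit, rose at 4 h (0.19) and 24 h (0.24), and TOMM20, an import receptor, rose in HEK293T (0.20). The third tunicamycin library at 24 h was the lowest for 12 of the 18 genes, and without it 13 still fell, with a median of -0.53, TOMM6 at -0.88 and TIMM8B at -0.76. Without the first DMSO library the median at 4 h turned to 0.07 and TIMM9, at 0.26, lost its call (adjusted p = 0.095). Counts for each list can be read against the shares of all genes. These were 18.5%, 23.5% and 12.6% for genes that rose and 18.9%, 27.7% and 13.1% for genes that fell.

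**Figure D5:**
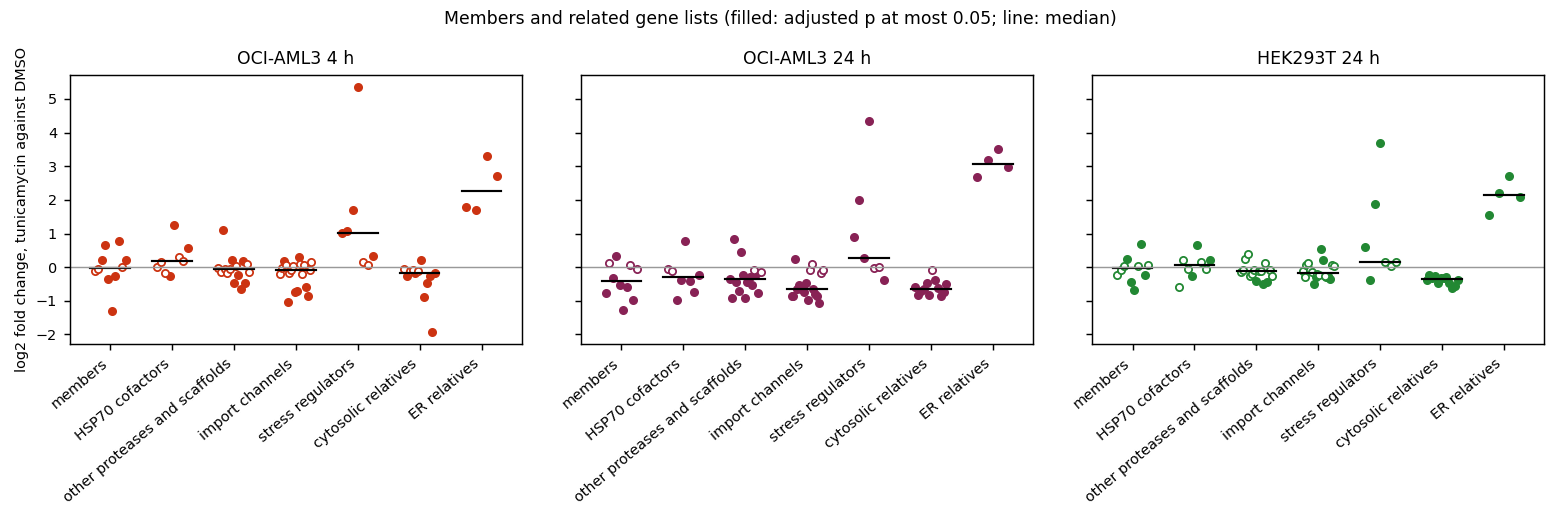
Log2 fold changes, tunicamycin against DMSO, of the 10 genes (members) and of 6 related lists in each comparison; filled points have an adjusted p of at most 0.05 and lines are medians. The medians of the 10 genes are -0.02, -0.41 and -0.02, those of the ER relatives 2.26, 3.08 and 2.14.

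Among 7 regulators tied to mitochondrial stress, 5 rose at 4 h, and 4 rose and 1 fell at 24 h. In HEK293T 3 rose and 1 fell. Of all genes 18.5%, 23.5% and 12.6% rose and 18.9%, 27.7% and 13.1% fell. ATF4, the transcription factor of the integrated stress response, rose in each (1.01, 0.90 and 0.59), beside DDIT3. ATF5, a factor known from the mitochondrial unfolded protein response, was at 16.4, 15.5 and 15.5 CPM in DMSO and 65.4, 66.3 and 57.1 in tunicamycin at 24 h in OCI-AML3 (2.0 ± 0.11, adjusted p = 7.4e-13), but at 10.7, 12.8 and 13.6 against 10.0, 9.97 and 8.26 CPM in HEK293T (-0.39 ± 0.12, adjusted p = 0.016). CEBPB, a partner of DDIT3, rose by 1.70 at 4 h, 0.27 at 24 h (0.41 without the third tunicamycin library) and 1.89 in HEK293T. HSF1, the master factor of the cytosolic heat shock response, rose at 4 h (0.34) and fell at 24 h (-0.37). DELE1 and EIF2AK1 (HRI), which relay mitochondrial stress to ATF4, had values between -0.01 and 0.15 and none passed the test.

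Over the 15 OCI-AML3 libraries the genes whose log2 CPM followed HSPD1 most closely among the 14011 others tested were CHCHD7, with a Pearson correlation of 0.995, HNRNPF (0.989) and TSR1 (0.988). HSPE1, its head-to-head neighbour, had a correlation of 0.828 and rank 1131. By Spearman correlation its rank was 340, and the 3 genes most like HSPD1 were others, PDSS1, SLAIN1 and SERBP1, with HNRNPF at rank 4, TSR1 at 13 and CHCHD7 at 22. Over the 6 HEK293T libraries HSPE1 had a Pearson correlation of 0.977 with HSPD1, beside 0.925 for CHCHD7, 0.975 for HNRNPF and 0.998 for TSR1. The libraries share their group means and scaling, so these values describe likeness only.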

How the data were processed

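The authors trimmed paired-end reads of polyadenylated RNA with seqtk, mapped them with STAR on GRCh38 and quantified Ensembl genes with RSEM. What they deposited are RSEM expected counts, unscaled, for 60671 genes in 21 libraries. RSEM divides reads that align to several genes, so genes with copies are less certain. Of the values of a library, 3.54 to 4.22% were not whole, and all were rounded. Whether the strand was used is not given in the sources used here.

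Tested were 14012 genes, those that reached 1 CPM in 8 or more libraries. TMM factors ran from 0.891 to 1.15. The quasi-likelihood test of edgeR 4.0.16 (R 4.3.3) was run on all 21 libraries, each of the 7 groups having its own mean. Groups came from the labels. The comparisons were tunicamycin against DMSO (OCI-AML3 at 4 h and 24 h, HEK293T at 24 h), both controls of time and solvent, the lines in DMSO, and the interactions. P-values were adjusted by Benjamini-Hochberg over all genes tested. A standard error (SE) is the fitted change over the square root of its F. A count of 0 allows up to 3 counts, 0.137 to 0.231 CPM, for counting error only. No libraries of a group were identical, and a pair of them stood farthest from the others of their groups. Ratios of genes were tested by exact permutation, two-sided. The fits were also run on simulated data, whose outcome is not given, and no result here rests on it.

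The members and lists were chosen with earlier results of these data known, and the motifs were chosen after the values had been seen. Named were all 10 members, HSPA5, DDIT3, HSPE1-MOB4, of each list at most the 3 genes farthest from 0 in each direction among those that passed, and the 3 genes most like HSPD1. Chosen after the values had been seen were overlapping genes, DELE1, EIF2AK1, DNAJC15, the genes most like HSPD1 by Spearman correlation and the HEK293T correlations. Values of a listed gene in comparisons where it falls outside this rule were also chosen then. The alternatives were limma voom (limma 3.58.1), DESeq2 1.42.0 (Wald test), its size factors within edgeR, library sizes without TMM, no filter, at least 1 CPM in only 3 libraries, separate fits for the groups compared, leaving out each library, a replicate block, counts summed with copies, a fold change threshold of 0.5, other gene lengths and Spearman correlation. The length of the canonical transcript, and the lists and ratios without the pair of libraries that stood farthest apart, were added after seeing the data. Gene positions and lengths are from GENCODE on GRCh38. Splicing was not analysed. Figures were drawn with matplotlib 3.10.9.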

Additional observations from a re-analysis of the deposited data

Results flagged for a closer look

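For 6 of the 10 genes the effect of tunicamycin in OCI-AML3 differed between 24 h and 4 h by the interaction term of the edgeR fit (24 h minus 4 h, log2): TRAP1 by -0.99, LONP1 by -0.72, CLPP by -0.65, DNAJA3 by -0.51, HSPA9 by -0.34 and YME1L1 by -0.25. The YME1L1 call was lost in most fits that left out a single library or changed the scaling or filter (adjusted p up to 0.24). LONP1 went from a fold change of 0.79 to 0.07 (0.20 without the third tunicamycin library) and DNAJA3 from 0.21 to -0.31 on the log2 scale. Of the regulators, the effect on ATF5 was higher at 24 h by 0.93, and the effects on CEBPB (-1.43), DDIT3 (-1.03) and HSF1 (-0.71) were lower.

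Between the lines at 24 h (HEK293T minus OCI-AML3) the effect differed for TRAP1 by 0.75, LONP1 by 0.62, HTRA2 by 0.61, HSPE1 by 0.58, CLPP by 0.55 and DNAJA3 by 0.34. CLPP and DNAJA3 lost this call in some fits that left out a single library (adjusted p up to 0.067 and 0.092). Of the regulators the effect differed for ATF5 by -2.38, CEBPB by 1.62, DDIT3 by -0.64 and HSF1 by 0.52. ATF5 rose in OCI-AML3 and fell in HEK293T, and LONP1 rose in HEK293T with a value of 0.07 in OCI-AML3. Without the third tunicamycin library of OCI-AML3 that LONP1 value was 0.20 (adjusted p = 0.041). The lines also differ in their basal levels of these genes, and the part of that in the differences was not tested.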

How the results depend on the processing

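The counts of members that changed in either direction stayed within 1.5 times of their value under every alternative run. By direction, those that rose were 2 in place of 4 at 4 h without a filter, and 2 in place of 1 at 24 h without the first or the third tunicamycin library. Also, of the values of single members 1996 kept their direction and side of the threshold, 19 passed it, 51 no longer did and 34 changed sign. Many of these values come from fits that left out a library outside the groups compared, which could change little. Under each alternative run, HSPD1, HSPE1 and HSPA9 kept their direction and call in the tunicamycin comparisons, as did TRAP1, CLPP, DNAJA3 and HTRA2 at 24 h in OCI-AML3 and LONP1 at 4 h and in HEK293T. Members past both thresholds numbered 3, 5 and 2 in OCI-AML3 at 4 h, at 24 h and in HEK293T with a threshold of 0.5, and 2 at 24 h by limma voom and without a filter. Leaving out libraries gave 1 to 2 at 24 h, the second being TRAP1 without the first tunicamycin library. Values that changed sign belonged to genes that had not passed the test, except DNAJA3 and CLPX between the lines in DMSO. Without TMM, TRAP1 at 4 h was -0.01, YME1L1 at 24 h 0.05, HTRA2 in HEK293T 0.00, the difference between lines -0.05 for HSPD1 and -0.01 for YME1L1, and CLPX in DMSO 0.07 higher in HEK293T. Without a filter, TRAP1 at 4 h was -0.03, and the lines differed in DMSO by -0.01 for DNAJA3 and -0.09 for YME1L1. YME1L1 at 24 h was 0.00 by DESeq2, with its size factors and with the filter of 3 libraries. Leaving out single libraries gave ranges of -0.03 to 0.09 (TRAP1) and -0.20 to 0.01 (CLPP) at 4 h, -0.06 to 0.06 (YME1L1) at 24 h, -0.01 to 0.07 (DNAJA3 and HTRA2) in HEK293T, -0.08 to 0.03 (TRAP1) between DMSO at 24 h and 4 h, -0.02 to 0.18 (HSPE1) for the difference between times and -0.01 to 0.09 (HSPD1) between lines. The cause was not tested. The labels do not say whether replicate numbers pair the samples. Deviations of same-numbered libraries correlated at -0.139 to 0.199, and not every library correlated best with its own number. In HEK293T each tunicamycin library did correlate best with the DMSO library of its number, at 0.044, 0.058 and 0.119. These low values do not settle whether samples were paired. With the replicate block, 7, 7 and 5 members changed in the tunicamycin comparisons, as without it, and the block added CLPP between DMSO at 24 h and 4 h (0.27, adjusted p = 0.019) and HTRA2 for the difference between times (-0.32, adjusted p = 0.045), a value that ranged from -0.40 to -0.18 (adjusted p up to 0.32) when single libraries were left out. The lowest level of a member in any library was 29.3 CPM (HTRA2), against the 0.137 to 0.231 CPM that a count of 0 allows. With canonical transcript lengths, chosen after seeing the data, the ratio of HSPE1 to HSPD1 at 4 h was 0.952 in DMSO and 0.496 in tunicamycin, against 1.66 and 0.867 with the longest transcripts, and by Spearman correlation the rank of HSPE1 was 340.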
